A study of Mus musculus with 6 samples.

Results

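Chromatin at the genes of autophagy and of the vacuolar proton pump was described in EML cells, a stem-cell-factor-dependent mouse line of blood precursors. The genes were chosen by name: every gene symbol of the Atg family or of the Atp6v0 and Atp6v1 families that the authors had assigned to a peak in any of 4 peak tables. The rule gave 37 genes of 20691 named in those tables, with 17 Atg genes and 20 Atp6v genes, the latter split into 9 of the membrane sector (V0) and 11 of the peripheral sector (V1). The gene families were picked with the peak tables in view, so the numbers of genes with a peak are a description and no test was made of them. Another 4 symbols of these families in the RefSeq gene table, Atg12, Atp6v1b2, Atp6v1fnb and Atp6v1g3, were assigned no peak in the tables used here and are not members. That does not make them closed: an ATAC interval assigned to another gene lay at a boundary of the Atg12 gene and of the Atp6v1b2 gene.

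The study mapped STAT3 and SOX4 by ChIP-seq in lin-CD34+ EML cells and GABPa by ChIP-seq in lin-CD34- EML cells, and it read open chromatin of the lin-CD34+ population with ATAC-seq. The cells carry the strain label B6D2F1 and the labels name no treatment other than sorting on magnetic beads and by flow cytometry. Each of the 6 groups, which include a control library for either population, was 1 library. Titles call the controls input but their antibody label is normal IgG, so the labels leave unclear what the fold enrichments are measured against. No spread between replicates could be measured, no p-value was computed, and GABPa differed from STAT3 and SOX4 in cell population as well as in antibody. All 4 peak tables use the mouse build mm10.

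Autophagy encloses cytoplasm in a double membrane and delivers it to the lysosome for breakdown. A kinase complex with Atg13 and Atg101 starts the membrane, a lipid kinase complex with Atg14 marks it, Atg2 and Atg9 proteins supply its lipids, and a ubiquitin-like conjugation system attaches Atg8 proteins to it. The vacuolar ATPase (V-ATPase) acidifies the lysosome: its V1 sector hydrolyses ATP and its V0 sector carries protons through the membrane. In blood stem cells autophagy is known for clearing mitochondria and for holding cells in a low metabolic state. STAT3 is a cytokine-activated factor, SOX4 an HMG-box factor and GABPa the DNA-binding ETS subunit of GABP.

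Most genes of the set (83.8%, against 68.2% of all listed genes) had an open promoter in lin-CD34+ cells. A few of those promoters carried factor peaks of varied strength. STAT3 lay at the starts of Atg16l1, Atg3, Atp6v1e1 and Atp6v0d1, which was 10.8% of the set against 1.98% of all listed genes. GABPa lay at the starts of Atg16l1 and Atp6v1e1, 5.41% against 1.54%. SOX4 peaks were assigned to 8 genes, 21.6% against 12.5%. All 8 peaks were in introns, as were 81.0% of the SOX4 list, and none was in a promoter. The promoters of Atp6v1e1, Atp6v0d1 and Atg3 are printed here because a STAT3 peak lies on each. Those of Atp6v1a and Atp6v0e were picked because they hold the same 8-base E-box as Atp6v0d1 and Atg3, so its presence in them is no result. A STAT3 peak assigned to its neighbour also lies beside the Atp6v1a start. Each is the 250 bases before and 30 bases after the start, 5′ to 3′ in the direction of transcription, from RefSeq on GRCm38.p6, the assembly that mm10 names. Capitals mark CACGTG (the E-box core) or its longer form TCACGTGA, and CCGGAAG (the ETS core) on either strand, which reads CTTCCGG on the other strand.
Atp6v1e1 (chr6:120822669-120822948, minus strand): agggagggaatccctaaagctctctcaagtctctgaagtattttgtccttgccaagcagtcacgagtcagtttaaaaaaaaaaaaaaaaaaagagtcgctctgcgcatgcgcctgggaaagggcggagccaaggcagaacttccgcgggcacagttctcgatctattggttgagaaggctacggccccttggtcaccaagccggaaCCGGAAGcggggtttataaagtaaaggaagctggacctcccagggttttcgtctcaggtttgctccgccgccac
Atp6v0d1 (chr8:105566035-105566314, minus strand): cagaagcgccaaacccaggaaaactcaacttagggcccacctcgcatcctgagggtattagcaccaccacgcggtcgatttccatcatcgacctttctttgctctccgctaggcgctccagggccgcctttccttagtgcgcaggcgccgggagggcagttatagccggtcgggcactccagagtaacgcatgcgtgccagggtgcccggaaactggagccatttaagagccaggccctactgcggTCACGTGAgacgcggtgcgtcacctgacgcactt
Atp6v1a (chr16:44139230-44139509, minus strand): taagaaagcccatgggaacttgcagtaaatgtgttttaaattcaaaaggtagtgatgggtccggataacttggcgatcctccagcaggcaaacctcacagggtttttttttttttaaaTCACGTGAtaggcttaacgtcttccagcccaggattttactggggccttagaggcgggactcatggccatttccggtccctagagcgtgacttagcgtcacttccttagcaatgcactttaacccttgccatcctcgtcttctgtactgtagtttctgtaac
Atg3 (chr16:45158579-45158858, plus strand): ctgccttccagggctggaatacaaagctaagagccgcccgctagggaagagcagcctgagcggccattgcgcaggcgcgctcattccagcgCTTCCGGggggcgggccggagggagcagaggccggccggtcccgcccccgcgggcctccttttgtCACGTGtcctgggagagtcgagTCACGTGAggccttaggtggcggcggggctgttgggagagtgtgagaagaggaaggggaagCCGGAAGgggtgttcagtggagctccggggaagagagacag
Atp6v0e (chr17:26676146-26676425, plus strand): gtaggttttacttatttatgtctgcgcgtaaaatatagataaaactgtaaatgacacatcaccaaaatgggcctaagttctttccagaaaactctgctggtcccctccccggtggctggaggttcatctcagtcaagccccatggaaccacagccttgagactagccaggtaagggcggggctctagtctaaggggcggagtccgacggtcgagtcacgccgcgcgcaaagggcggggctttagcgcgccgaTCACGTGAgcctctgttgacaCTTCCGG

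Atg16l1 had the strongest STAT3 promoter peak of the set. Atg16l1 binds the Atg12-Atg5 conjugate and directs where Atg8 proteins join the membrane. The STAT3 peak (chr1:87755716-87756169) was centred 69 bp upstream of the transcription start site (TSS) and held 87 tags, the reads counted in the peak. Its score (the log10 of the p-value that the caller gave, multiplied by −10) was 173.69 and ranked 52 of 885 STAT3 peaks, and its tag number ranked 8. The peak caller's fold enrichment was 16.12 with a false discovery rate (FDR) of 3.16%. The list medians were 30 tags, score 92.53 and fold 22.27, so the peak was high in tags and score and low in fold within its list. An ATAC interval (chr1:87755828-87756546) covered 75.3% of it and its summit, the point of most tags.

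The same promoter carried a GABPa peak in lin-CD34- cells. That peak (chr1:87754627-87756331) was 1705 bp wide, was centred 532 bp upstream of the TSS and held 76 tags with a score of 434.09, rank 76 of 2525, a fold of 23.58 and an FDR of 1.67%. GABPa list medians were 14 tags, score 99.74 and fold 12.2, below this peak on all 3 values. The STAT3 peak lay wholly within the GABPa peak, and their summits were 171 bp apart. The ATAC interval of lin-CD34+ cells covered 29.6% of the GABPa peak and not its summit.

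Atp6v1e1 was the other gene with promoter peaks of both factors. It encodes the widely expressed E subunit, part of the peripheral stalks that hold V1 to V0. Its GABPa peak (chr6:120822493-120823508), centred 315 bp upstream of the TSS, had 131 tags, a score of 1176.76 that ranked 23 of 2525, a fold of 36.31 and an FDR of 2.22%. Its STAT3 peak (chr6:120822557-120822927), centred 57 bp upstream, had 67 tags, a score of 148.77 that ranked 115 of 885, a fold of 20.61 and an FDR of 2.34%. As at Atg16l1, the STAT3 peak lay wholly within the GABPa peak, here with summits 176 bp apart. The ATAC interval at this start (chr6:120822359-120823052) covered 100.0% of the STAT3 peak and 55.1% of the GABPa peak, with both summits inside it. The CCGGAAG match of the printed Atp6v1e1 promoter, 44 bases before the start, lay inside both peaks. Of all 20691 listed genes, 0.251% had promoter peaks of both STAT3 and GABPa, a promoter peak being one centred within 1000 bp of a TSS, and these 2 of 37 genes were 5.41%.

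Atg3 had the STAT3 peak with the highest fold of the set. Atg3 is the conjugating enzyme that transfers Atg8 proteins to phosphatidylethanolamine. The peak (chr16:45158602-45158960), centred 48 bp upstream of the TSS, had 43 tags, a score of 134.52 that ranked 168 of 885, an FDR of 1.83% and a fold of 32.79 that ranked 68. It lay whole inside a 1427-bp ATAC interval (chr16:45158134-45159560), the only interval assigned to Atg3 and the widest promoter interval of the 37 genes. Inside the peak the printed promoter held TCACGTGA beginning 72 bases before the start, another CACGTG 94 bases before it, and CCGGAAG at 159 and 11 bases before it.

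Atp6v0d1 had a weaker STAT3 peak over its start. It encodes the widely expressed d subunit, which joins the central stalk to the proton ring. The peak (chr8:105565937-105566222), centred 39 bp upstream of the TSS, had 23 tags, a score of 78.13 that ranked 676 of 885, a fold of 19.79 and an FDR of 3.58%. Its tags, score and fold were all below the list medians. An ATAC interval (chr8:105566004-105566771) covered 76.6% of it and its summit. The TCACGTGA of the printed Atp6v0d1 promoter begins 4 bases before the start and lay inside the peak.

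The 2 remaining STAT3 peaks lay outside the promoter window. Atp6v0a1 encodes a widely expressed a subunit, which lines the proton path. Its peak (chr11:101008144-101008594) was centred 1083 bp upstream, just past the 1000-bp limit, in sequence annotated as intergenic, and had 50 tags, a score of 86.56, a fold of 11.56 and an FDR of 2.4%. A 156-bp ATAC interval covered 34.6% of it but not its summit. Atg10, the conjugating enzyme that joins Atg12 to Atg5, had a peak in intron 1 of 7 (chr13:91212393-91212705), 11438 bp past the TSS, with 24 tags, a score of 73.1 that ranked 828 of 885, a fold of 19.79 and an FDR of 3.99%. No ATAC interval touched it and the nearest was 2231 bp away. It was the only one of the 6 STAT3 peaks outside open chromatin.

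Counting genes, 6 of 37 (16.2%, exact 95% Clopper-Pearson interval 6.19 to 32.0, counting error only) had a STAT3 peak at any listed distance, against 4.12% of all listed genes. A STAT3 promoter peak was present at 4 of 37 (10.8%, interval 3.03 to 25.4), against 1.98%. GABPa peaks were assigned to 3 of 37 (8.11%, interval 1.7 to 21.9), against 9.59%, and GABPa promoter peaks to 2 of 37 (5.41%, interval 0.661 to 18.2), against 1.54%. The GABPa share at any distance was thus near the background. At least 1 factor had a peak at 13 of 37 genes (35.1%, interval 20.2 to 52.5), against 22.6%. At least 2 factors had one at 4 of 37 (10.8%, interval 3.03 to 25.4), against 3.44%. Those 4 were Atg16l1, Atp6v1e1, Atp6v0d1 and Atg7. The intervals of both GABPa counts, of the count for at least 1 factor and of that for at least 2 factors included the share of listed genes.

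**Figure D1:**
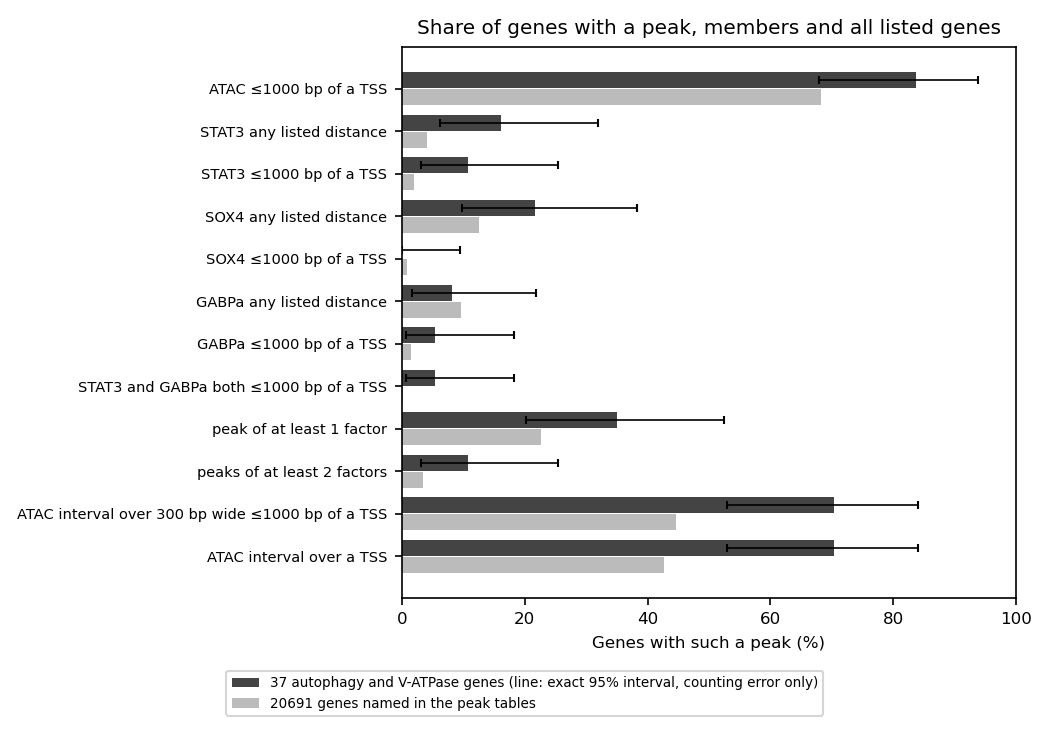
Share of genes in percent (horizontal axis) with each kind of peak (rows), for the 37 autophagy and V-ATPase genes (dark bars, with exact 95% intervals for counting error) and for all 20691 listed genes (light bars). STAT3 promoter peaks were present at 10.8% of the set and 1.98% of listed genes, while GABPa peaks at any distance were present at 8.11% and 9.59%.

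**Figure D2:**
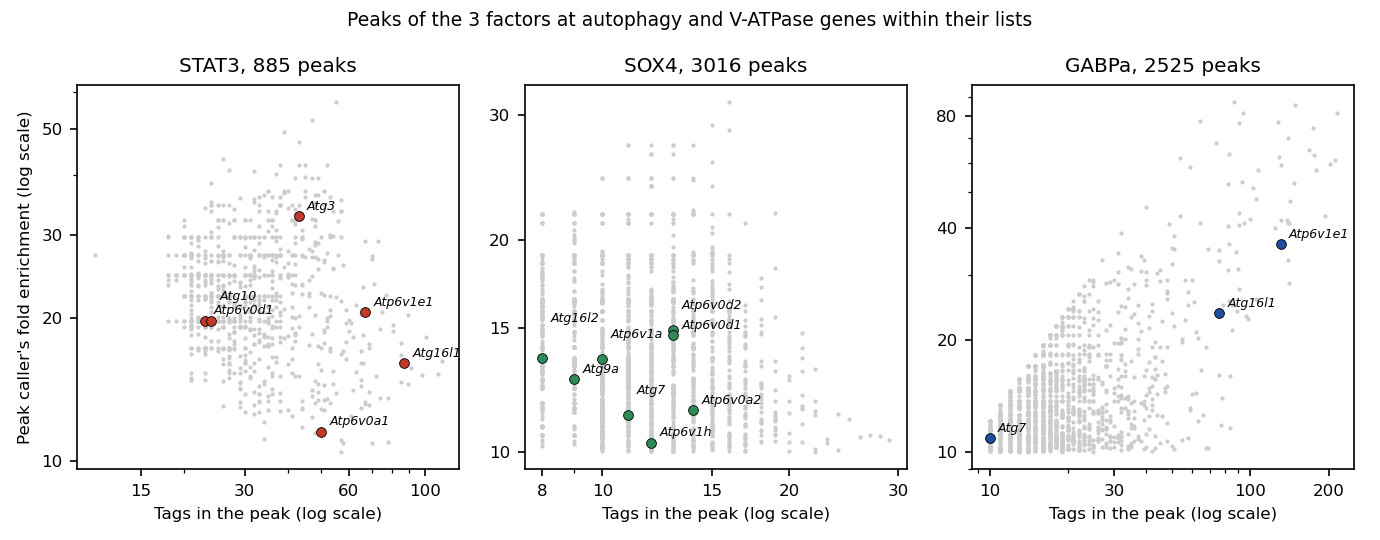
Tags (horizontal axis, log scale) and the peak caller's fold enrichment (vertical axis, log scale) of every STAT3, SOX4 and GABPa peak (grey points) with the peaks assigned to autophagy and V-ATPase genes in colour. The GABPa peaks of Atp6v1e1 (131 tags) and Atg16l1 (76 tags) lie far above their list's median of 14 tags, and the SOX4 peaks span 8 to 14 tags.

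SOX4 peaks were assigned to 8 of the 37 genes (21.6%, interval 9.83 to 38.2), against 12.5% of all listed genes, a share that the interval included. All 8 were annotated to introns, and none of the 37 genes had a SOX4 promoter peak, against 0.764% of listed genes. The strongest were at Atp6v0d2 and Atp6v0d1, isoforms of the same V0 subunit, the former best known from osteoclasts. The Atp6v0d2 peak (chr4:19881405-19881580, intron 5 of 7, 41074 bp past the TSS) had 13 tags, a score of 83.4, a fold of 14.89 and an FDR of 1.15%. The Atp6v0d1 peak (chr8:105553038-105553191, intron 1 of 7, 12926 bp past the TSS) had the same tags, score and FDR with a fold of 14.66. The list medians were 10 tags, score 64.91 and fold 13.61. Both peaks thus stood above their list's medians, with 85.4% of the 3016 SOX4 peaks below their score.

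Atp6v0a2, which encodes an a subunit of Golgi and endosome pumps, had a SOX4 peak in intron 4 of 19 (chr5:124637958-124638160, 9007 bp past the TSS) with 14 tags, a score of 69.9, a fold of 11.45 and an FDR of 1.35%. Atp6v1a, the catalytic A subunit, had one in intron 8 of 14 (chr16:44106351-44106533, 32577 bp) on a simple GA repeat, with 10 tags, a score of 56.93, a fold of 13.55 and an FDR of 2.2%. Atp6v1h, the regulatory H subunit, had one in intron 8 of 12 (chr1:5125651-5125859, 42669 bp) on a SINE, with 12 tags, a score of 54.79, a fold of 10.31 and an FDR of 2.38%. The peaks of Atp6v1a and Atp6v1h had scores below the list median, and that of Atp6v0a2 lay just above it.

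The 3 Atg genes with SOX4 peaks all had scores below the list median. Atg9a is the lipid scramblase of the vesicles that seed the membrane, and its peak (chr1:75187208-75187351, intron 7 of 15) was the nearest to a TSS of the 8, at 4731 bp. It overlay an LTR element and had 9 tags, a score of 61.19, a fold of 12.69 and an FDR of 1.62%. The peak assigned to Atg16l2, a paralog of Atg16l1, lay 14832 bp outside that gene, in an intron of the neighbouring Fchsd2 (chr7:101271344-101271493), with 8 tags, a score of 59.41, a fold of 13.61 and an FDR of 1.85%. The Atg7 peak (chr6:114748637-114748794, intron 17 of 18, 105618 bp past the TSS) overlay a LINE-1 element and had 11 tags, a score of 57.84, a fold of 11.28 and an FDR of 2.32%. Atg7 is the activating enzyme of the conjugation system.

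Atg7 also had a GABPa peak in the same intron, and it was among the weakest of its list. The peak (chr6:114763166-114764400, 120686 bp past the TSS) overlay an L1Md_A element and had 10 tags, a score of 51.64 that ranked 2471 of 2525, a fold of 10.91 and an FDR of 0.09%. It lay 7154 bp from the nearest ATAC interval, and the Atg7 SOX4 peak 3913 bp from its nearest. Another GABPa peak in intron 18 of Atg7 (chr6:114818750-114819372, 13 tags, score 169.53) was assigned to Vgll4, on an ID4 SINE, and 34.5% of it was open.

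Most STAT3 peaks of these genes lay in open chromatin of lin-CD34+ cells and no SOX4 peak did, a difference between single libraries that was not tested. Of the STAT3 peaks 5 of 6 (83.3%, interval 35.9 to 99.6) overlapped an ATAC interval by at least 1 bp, beside 78.4% of the whole STAT3 list. Of the SOX4 peaks 0 of 8 did (interval 0.0 to 36.9), beside 5.4% of the SOX4 list, and their nearest intervals were 652 to 18920 bp away. Of the GABPa peaks, mapped in the other population, 2 of 3 (66.7%) did, beside 16.8% of the list, and these were the 2 promoter peaks. Introns held 8 of 8 SOX4 peaks of the set, beside 81.0% of the list, and repeats held 4 of 8, beside 34.0%. For each factor the exact interval of the set's share included the share of the whole list, with upper bounds of 36.9% for SOX4 and a range of 9.43 to 99.2 for GABPa.

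SOX4-assigned genes of the set were long. Their median gene length was 50015 bp, against 27455 bp for the other 29 genes, and over all listed genes with a SOX4 peak it was 43005 bp, against 18513 bp for all listed genes. Atg7, at 217478 bp, was the longest of the 8, and Atg9a, at 11150 bp, the shortest. Gene length moved with SOX4 assignment in the whole list as in the set. The 37 genes were themselves long, with a median of 29710 bp. Members with a STAT3 peak had a median of 39013 bp, against 23252 bp for the other members and 28880 bp for all listed genes with a STAT3 peak. For GABPa these medians were 36422, 28626 and 40929 bp. The part of gene length in the counts of genes with a peak of SOX4, STAT3, GABPa or any factor was not tested.

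Assignment to the nearest TSS left some peaks at these genes under another name. A STAT3 peak (chr16:44139385-44139650) with 23 tags, score 82.23 and fold 24.74 was assigned to Naa50, 292 bp from its TSS, although the Atp6v1a gene of the RefSeq table spans it, with its summit 190 bp inside. ATAC intervals covered 25.2% of this peak and not its summit. In the printed Atp6v1a promoter, whose start lies downstream of the start in the gene table, the TCACGTGA runs 1 base past the peak's edge, while its CACGTG core lies inside. SOX4 peaks near Atg4b (14 tags) and Atg9b (12 tags) were assigned to Thap4 and Abcb8, and a GABPa peak in intron 12 of Atg16l1 (12 tags) to Scarna6. None of these 3 was open.

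**Figure D3:**
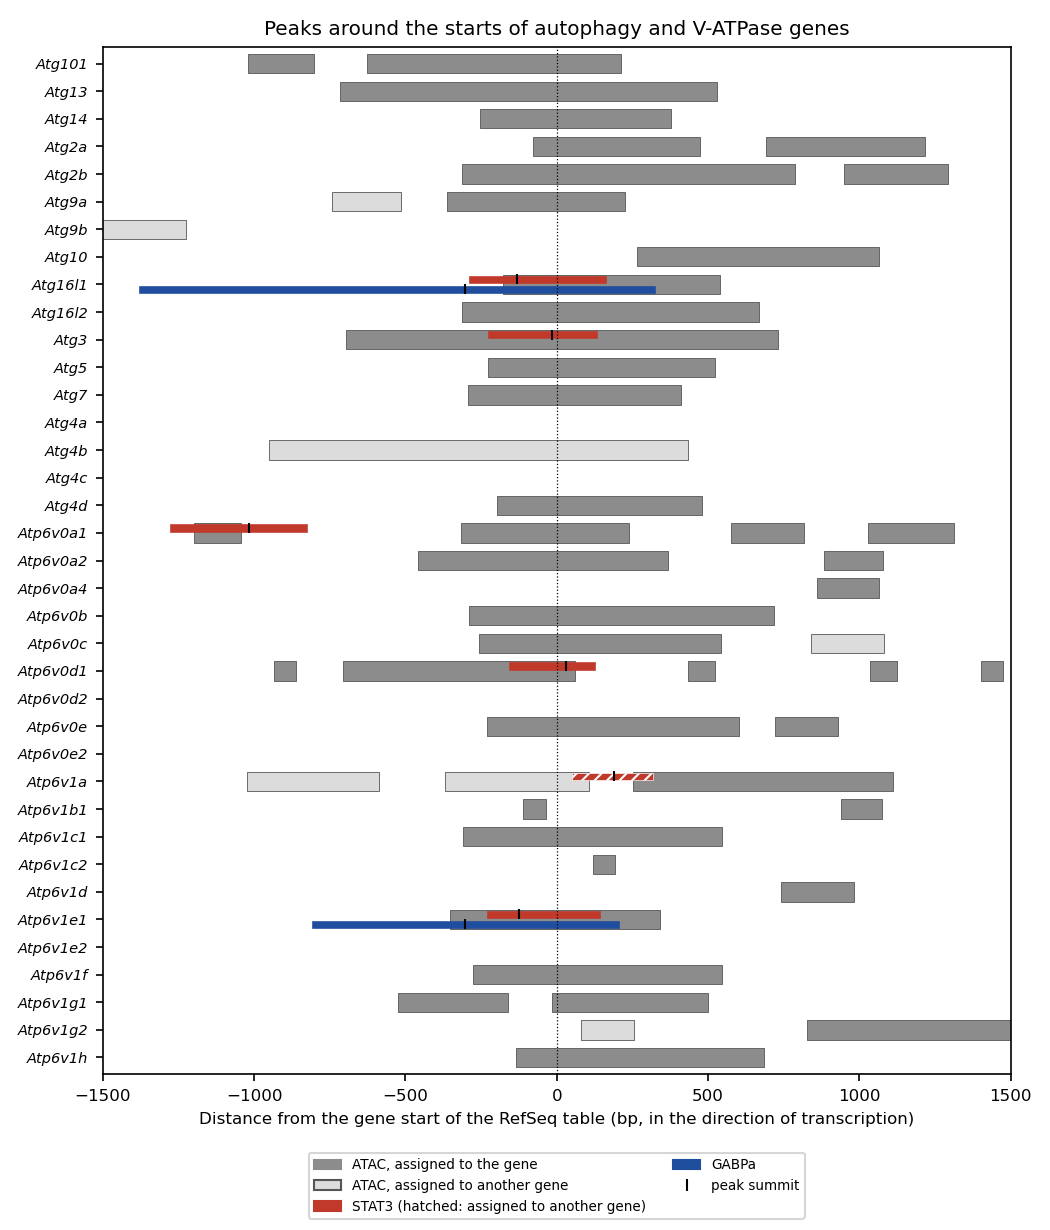
Position of ATAC intervals (grey bars, pale where assigned to another gene), STAT3 peaks (red, hatched where assigned to another gene) and GABPa peaks (blue) around the start of each of the 37 genes, as distance in bp from the RefSeq gene start in the direction of transcription, with peak summits as black ticks. The STAT3 peaks of Atg16l1 and Atp6v1e1 sit inside the wider GABPa peaks, and an ATAC interval lies over the start of 25 of the 37 genes.

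Open chromatin was assigned to all 37 genes, as it was to 98.4% of listed genes. An ATAC interval within 1000 bp of a TSS was assigned to 31 of 37 (83.8%, interval 68.0 to 93.8), against 68.2% of listed genes, with 14 of 17 Atg genes and 17 of 20 Atp6v genes. A promoter interval wider than 300 bp was present at 26 of 37 (70.3%, interval 53.0 to 84.1), against 44.6%. The widest promoter interval per gene had a median of 768 bp and a range of 73 to 1427 bp over the 31 genes, beside a median of 559 bp over listed genes with one. Width is the only size measure of an interval here, because the ATAC table gives no tags and no score.

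Among the Atg genes, the initiation and conjugation genes were all open at their promoters. The widest intervals of Atg13 and Atg101, of the starting kinase complex, were 1244 bp and 837 bp, and that of Atg14 was 633 bp. The conjugation genes followed Atg3 in the order Atg16l2 (980 bp), Atg10 (801 bp), Atg5 (749 bp), Atg16l1 (719 bp) and Atg7 (704 bp). Of the lipid supply genes, the interval was 1099 bp at Atg2b, 589 bp at Atg9a and 551 bp at Atg2a, the first and last being lipid transfer proteins. The Atg2b interval was annotated to the promoter of a different transcript from the one named for the Atg2b introns. Atg9b, the paralog of Atg9a, had no promoter interval, and its nearest was 2725 bp past a TSS.

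The Atg4 proteases, which cut Atg8 proteins before and after conjugation, had a promoter interval at 2 of 4 genes. Atg4d had 675 bp and Atg4c 139 bp. The start of Atg4b lay under an interval of 1384 bp (chr1:93753954-93755337) that the authors' table assigned to Thap4, which shares the region. The 5 intervals assigned to Atg4a lie on chromosome 3, whereas the gene table places Atg4a on chromosome X, where no interval lay within 1500 bp of the gene start. Those 5 intervals do not describe the Atg4a gene of that table. Another Atg4a start in the RefSeq promoter table, 3062 bp downstream, lay under an interval of 857 bp that was assigned to Psmd10.

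Among the V-ATPase genes, most widely expressed subunits had a wide promoter interval and most tissue-restricted isoforms a narrow one or none. The list of tissue-restricted isoforms was taken from textbook knowledge of where each isoform is made. Every other Atp6v member was counted as widely expressed by default, without a check of where it is made. Of these 14 subunits taken as widely expressed, 13 had a promoter interval, with a median width of 822 bp. The exception was Atp6v0e2, so both counts over the 14 depend on its placement. Of 6 tissue-restricted isoforms, 4 had one (66.7%), with a median of 141.5 bp, so their share was close to the 68.2% of listed genes and it was the width that was low beside the median of 559 bp. An interval lay over a TSS, by the authors' distance and the interval's width, in 12 of 14 widely expressed subunits (85.7%) and in 1 of 6 restricted isoforms (16.7%), which was Atp6v1g2. The Atp6v1g2 interval did not lie over that gene's start in the gene table. The background of the count of genes with an interval over a TSS was 42.6% of listed genes, and over all 37 genes the count was 26 (70.3%).

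In the V0 sector the widest promoter interval was 1008 bp at Atp6v0b and 799 bp at Atp6v0c, both of the proton ring. An interval assigned to the pseudogene Atp6v0c-ps2 lay beside the Atp6v0c start, and how reads shared by such copies were placed is not stated. The widest interval was 833 bp at Atp6v0e, a small membrane subunit, 827 bp at Atp6v0a2, 768 bp at Atp6v0d1 and 555 bp at Atp6v0a1. Atp6v0a4, the kidney and inner ear a subunit, had only a 205-bp interval 963 bp past its TSS, annotated to the 3' UTR of another gene's transcript. Atp6v0d2 and Atp6v0e2 had none, and their nearest intervals lay 4584 bp upstream and 3742 bp downstream of a TSS.

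In the V1 sector the widest promoter interval was 860 bp at Atp6v1a, 856 bp at Atp6v1c1, 822 bp at Atp6v1f and Atp6v1h, 694 bp at Atp6v1e1 and 517 bp at Atp6v1g1. Atp6v1c1 and Atp6v1h encode subunits that regulate how V1 holds to V0, and Atp6v1f and Atp6v1d belong to the central stalk. Atp6v1d was the narrowest of the widely expressed subunits at 242 bp. Its interval lay 741 to 982 bp past its start in the gene table. It was annotated to the promoter of a different transcript from the one named for the Atp6v1d intron. The Atp6v1a interval was likewise annotated to the promoter of the transcript named for the Naa50 intervals. The kidney isoform Atp6v1b1 had 78 bp and Atp6v1c2 had 73 bp, the narrowest of the set, and the testis isoform Atp6v1e2 had none. The neuronal isoform Atp6v1g2 departed from the rest with 912 bp, an interval centred 382 bp upstream of its TSS in a region that also held an interval of Nfkbil1. The 912-bp interval lay 828 to 1739 bp past the Atp6v1g2 start of the gene table and not over it. It did cover a later Atp6v1g2 start of the RefSeq promoter table. Whether it belongs to Atp6v1g2 or to the neighbour was not tested.

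**Figure D4:**
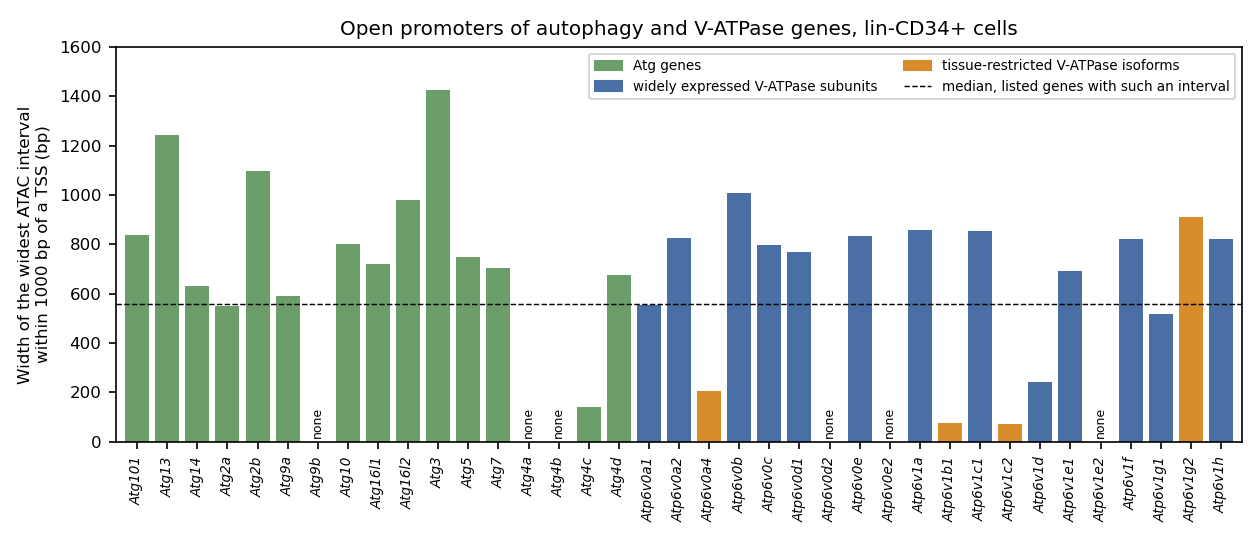
Width in bp (vertical axis) of the widest ATAC interval within 1000 bp of a TSS for each of the 37 genes, coloured by Atg genes, widely expressed V-ATPase subunits and tissue-restricted V-ATPase isoforms, with the median of 559 bp over listed genes as a dashed line. The restricted isoforms other than Atp6v1g2 had 205 bp or less, and 6 genes had no such interval.

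The genes with the most open intervals were the longest of the set. It held 381 entries at 258 distinct intervals, with a median of 5 per gene against 4 over listed genes. Atg10 had 57 intervals over a gene of 289378 bp and Atg7 had 35 over 217478 bp, while Atg3, Atp6v0a4, Atp6v0b, Atp6v0e2, Atp6v1f and Atp6v1g2 had 1 each. At least as many intervals as Atg10 were assigned to 131 listed genes, Atg10 included, and at least as many as Atg7 to 436. Assigned intervals were also divided by gene length, with intervals outside the gene body counted too. Over the 36 genes whose entries lie on the chromosome of the gene table, the median was 1.99 per 10 kb, against 2.18 over listed genes. Introns held 75.2% of the 258 intervals, against 75.4% of all 143365 distinct intervals, and repeats 22.9% against 21.0%. Promoter intervals of the set were listed more than once in 29 of 39 cases (74.4%), against 51.0% of all promoter intervals, and no source used here says what the repeated listing stands for.

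**Figure D5:**
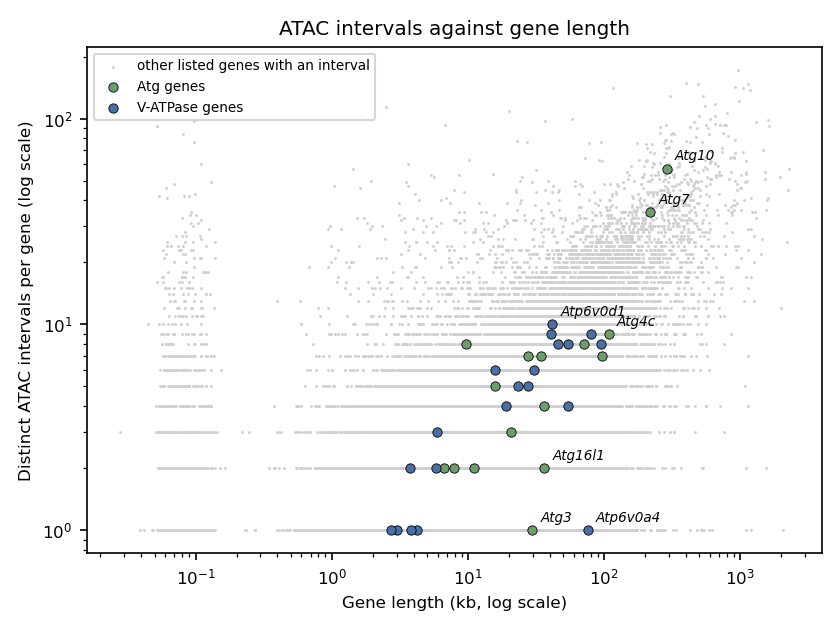
Distinct ATAC intervals per gene (vertical axis, log scale) against gene length in kb (horizontal axis, log scale) for the Atg genes (green), the V-ATPase genes (blue) and the other listed genes with an interval (grey), without Atg4a. Atg10 with 57 and Atg7 with 35 intervals are among the longest genes of the set, and Atg3 has 1.

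Sequence matches in the promoter windows were counted over 31 of the 37 genes, those found in the RefSeq promoter table, in windows of 250 bases before to 50 after each start and on both strands. Atg16l1, which had promoter peaks of both STAT3 and GABPa, is not in that table, so its promoter was not searched for any motif. TCACGTGA, the E-box form known from lysosomal genes, was found at 4 of 31 genes (12.9%), against 0.974% of all 32851 windows, and its core CACGTG, which every TCACGTGA contains, at 8 of 31 (25.8%), against 7.15%. The 8 were Atg3, Atg5, Atg7, Atg14, Atp6v0b, Atp6v0d1, Atp6v0e and Atp6v1a. The Atg7 window is an internal start, 27969 bp past the gene start with the 704-bp interval, and its match was not open. CCGGAAG was found at 6 of 31 (19.4%), against 8.86%, in Atg3, Atg101, Atp6v0b, Atp6v0e, Atp6v1d and Atp6v1e1. Of these 6 only Atp6v1e1 had a GABPa peak. TTCNNNGAA, the STAT core, was found at 0 of 31, against 8.3%, although the windows of Atg3, Atp6v0d1, Atp6v1a and Atp6v1e1 overlap STAT3 peaks, and ACAAAG, a SOX core, at 5 of 31 (16.1%), against 18.7%. A gene may have more than 1 window, while the background counts windows, and a match describes letters and not a bound site.

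Other genes of the same pathways were set beside the members from 2 further lists. Beside them stand the shares of listed genes given above: 68.2% for ATAC promoters, 1.98% for STAT3 promoters, 1.54% for GABPa promoters, 0.764% for SOX4 promoters and 12.5% for SOX4 at any distance. Of 32 other autophagy genes, 31 had an ATAC promoter interval and 5 a STAT3 promoter peak: Wdr45b (33 tags, score 122.51) and Wipi2 (22 tags, score 77.71), which bind the lipid mark, Gabarap (34 tags, score 77.4), an Atg8 protein, Tax1bp1 (34 tags, score 119.92), a cargo receptor, and Tmem41b (32 tags, score 70.75), a lipid scramblase. GABPa promoter peaks lay at Pik3c3, the lipid kinase itself (141 tags, score 1098.93), and at Uvrag, one of its partners (43 tags, score 430.54). All 7 were open in lin-CD34+ cells. Of 30 lysosomal genes and their regulators, 30 had an ATAC promoter interval and 3 a STAT3 promoter peak: Lamtor3 (54 tags, score 196.85), Lamtor1 (33 tags, score 109.28) and Mcoln1 (22 tags, score 76.22). The first pair are subunits of the Ragulator complex on the lysosome and Mcoln1 is its calcium channel. GABPa promoter peaks were at 0 of these 30 genes. At any distance, GABPa peaks were at 3 of the 32 and 1 of the 30 genes, against 9.59% of listed genes. Those outside promoters, at Map1lc3a and Lamp2, were not open. SOX4 promoter peaks were at 0 genes of either list, while SOX4 peaks at any distance were at 5 of 32 and 4 of 30 genes, near the background, and none of those peaks was open.

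Marker genes gave a check of the labelled cells. Promoter intervals were present at 9 of 9 blood progenitor genes, among them Cd34 and Kit, against 68.2% of listed genes. They were present at 3 of 10 genes of mature or committed blood lineages, Elane, Itgam and Itga2b, although the cells are labelled lineage-negative. They were also present at 2 of 6 genes of other tissues, Myh6 and Krt5, which are known from heart muscle and skin.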

How the data were processed

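The members and all lists were chosen with earlier results of these data known. ChIP-seq and ATAC-seq peak tables of 4 libraries were used, and the control libraries only as the authors' processing used them. Per the submitters' processing notes, mm10 was the build and MACS2, Bowtie2, SAMtools, HOMER, Picard and CASAVA 1.7 were used, with no role stated for any. The authors deposited tag counts per peak as whole reads. Per the file headers, the deposited score multiplies the log10 of each p-value by −10. The fold enrichment is the authors' deposited ratio over background, and the deposited FDR is in percent. Scores, folds and FDRs are the authors' values for each peak and were used only within a list. The lowest fold listed was 10.01, the highest FDR 4.92%, and the farthest peak lay 4999 bp upstream of a TSS. The ATAC table has positions and annotation only, and no source used here says whether reads were shifted for the transposase or gives library totals, so depth is known only as tags per peak.

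A promoter peak has an absolute value of at most 1000 bp in the deposited distance column. Overlaps needed 1 bp and used distinct ATAC intervals. Backgrounds are shares of all 20691 listed symbols, of which 19841 were found in the RefSeq gene table, as were all 37 members. Strands came from the authors' distances and the promoter table. Every member is named, every factor peak is given, and sequences are those of members in the RefSeq promoter table with a factor promoter peak or TCACGTGA. Intervals are exact Clopper-Pearson at 95% and cover counting error only. The tools were pandas 2.3.3, numpy 2.4.6, matplotlib 3.10.9 and scipy 1.17.1 in Python 3.11.15. Overlaps and motif searches were tested on simulated data. Another lineage marker gene is not reported here. Counts of intervals over a TSS were added after seeing the data. Alternatives changed the promoter window, the score, repeats, repeated entries, the overlap rule, the assignment and the motif window.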

Additional observations from a re-analysis of the deposited data

How the results depend on the processing

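Over 17 results and 50 alternatives, 36 values stayed within the limit set for a change, 14 moved and 0 reversed. With only entries whose interval is listed once, ATAC promoter intervals were left at 9 genes, 2 Atg and 7 V-ATPase, 29 of the 39 promoter intervals of the set being listed more than once. With scores above the list median, STAT3 peaks were left at 3 genes and SOX4 peaks at 3, and without peaks in repeats SOX4 peaks at 4. A 5000-bp window gave 1 SOX4 promoter gene, Atg9a, and a 500-bp window left 1 GABPa promoter gene. The median number of intervals per gene was 8 over all entries (6 over listed genes) and 2 within 5000 bp of the TSS (2 over listed genes). In the 150 bases before the start, CCGGAAG was at 3 genes, ACAAAG at 2, CACGTG at 5 and TCACGTGA at 2. Alternatives that assign peaks by position were chosen after seeing the data and gave 6 genes with a STAT3 peak at the gene start. Apart from the medians of intervals, these values are for the set only. The shares of listed genes or windows under the same settings are not given. Whether the set's differences from those shares stayed under each setting was thus not tested. No paired analysis was possible because each group had 1 library, and for the same reason no replicate could be left out. With a median of 10 tags per SOX4 peak, the SOX4 peaks rest on few reads, and the intervals of all shares over 3 to 8 peaks are wide.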
